A study of Mus musculus with 32 samples.

Results

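The 10 genes described here encode chemokines and receptors that bring monocytes and macrophages into tissue: the CC chemokines Ccl2, Ccl7, Ccl8, Ccl12, Ccl6 and Ccl9, the CC receptors Ccr1 and Ccr2, and the fractalkine pair Cx3cl1 and Cx3cr1. They were chosen by gene symbol, and each has 1 row among the 39676 genes of the count table. RNA was measured in whole tumors from 32 untreated female mice of 8 to 10 weeks, with 8 mice in each of 4 groups. In the AB1 model, 500000 cells of the mesothelioma line AB1 were inoculated into syngeneic BALB/c mice, and in the AE17 model, 1000000 cells of the line AE17 were inoculated into syngeneic C57BL/6 mice. The cells were placed either in the pleural space (intrapleural, IPL) or under the skin of the flank (subcutaneous, SC), and every tumor was taken on day 10, with the lungs and surrounding tissue removed from IPL tumors before RNA extraction. Each model is 1 cell line in 1 strain. Total counts ranged from 15432258 to 20649645 per mouse. Levels are given in CPM, the count as a share of the library total on a common scale, with TMM factors over all 32 mice. All 10 members passed the filter on low counts in every comparison, and the lowest count of any member in any mouse was 408, for Ccl12. In whole tumors, fewer cells of a type and less RNA per cell cannot be told apart.

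CC chemokines are small secreted proteins that bind G protein-coupled receptors on leukocytes. CCR2 is the receptor by which classical monocytes leave the bone marrow and enter inflamed tissue, and CCL2, CCL7 and CCL12 are its ligands in mice. Mouse CCL8 acts mainly through CCR8, CCL6 and CCL9 act through CCR1, and CX3CL1 (fractalkine), which exists as a membrane-bound adhesion molecule and as a shed chemokine, binds CX3CR1 on patrolling monocytes and many tissue macrophages.

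In GENCODE M21 on GRCm38, the 6 CC chemokines lie on chromosome 11 in 2 clusters. Ccl2 (chr11:82035571-82037453), Ccl7 (chr11:82045712-82047525), Ccl12 (chr11:82101845-82103400) and Ccl8 (chr11:82115185-82116799) follow each other on the plus strand, with gaps of 8.3, 54.3 and 11.8 kb. Ccl9 (chr11:83572919-83578636) and Ccl6 (chr11:83587882-83593087) lie on the minus strand, 9.2 kb apart and 1456.1 kb beyond Ccl8. Ccr1 (chr9:123962124-123968692, minus strand) and Ccr2 (chr9:124101950-124113557, plus strand) are 133.3 kb apart on chromosome 9, where Cx3cr1 (chr9:119901616-120069879, minus strand) also lies. Cx3cl1 (chr8:94772009-94782427, plus strand) is on chromosome 8. All 10 are annotated as protein-coding. Exons of Cx3cr1 share 78 bases with the antisense gene Gm33858, and reads from the pair cannot be told apart without strand.

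The 250 bases upstream of the RefSeq start (GRCm38.p6) are shown for 2 neighboring pairs. Ccl8 and Ccl12 are neighbors whose levels differed in their response to site in AB1 tumors. Ccl6 and Ccl9 are neighbors whose levels rose and fell together across mice. The sequences are those of C57BL/6, the strain of the AE17 model, written on the gene's strand, and capitals mark motif letters. The 4 windows are chr11:82114935-82115184 (plus strand), chr11:82101595-82101844 (plus strand), chr11:83593088-83593337 (minus strand) and chr11:83578637-83578886 (minus strand).
Ccl8: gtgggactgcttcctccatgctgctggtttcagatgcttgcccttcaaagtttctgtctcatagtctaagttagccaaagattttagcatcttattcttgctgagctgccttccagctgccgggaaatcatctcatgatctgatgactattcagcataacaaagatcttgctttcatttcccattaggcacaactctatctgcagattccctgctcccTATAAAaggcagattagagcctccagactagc
Ccl12: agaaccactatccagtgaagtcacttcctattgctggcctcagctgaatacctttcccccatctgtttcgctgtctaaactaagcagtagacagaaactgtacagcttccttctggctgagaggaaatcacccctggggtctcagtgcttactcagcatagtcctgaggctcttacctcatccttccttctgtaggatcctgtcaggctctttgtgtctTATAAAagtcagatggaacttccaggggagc
Ccl6: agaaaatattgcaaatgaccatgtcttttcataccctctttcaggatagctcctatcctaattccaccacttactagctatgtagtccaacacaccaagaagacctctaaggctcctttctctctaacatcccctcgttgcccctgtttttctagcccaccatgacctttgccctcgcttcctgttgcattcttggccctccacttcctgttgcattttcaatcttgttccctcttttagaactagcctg
Ccl9: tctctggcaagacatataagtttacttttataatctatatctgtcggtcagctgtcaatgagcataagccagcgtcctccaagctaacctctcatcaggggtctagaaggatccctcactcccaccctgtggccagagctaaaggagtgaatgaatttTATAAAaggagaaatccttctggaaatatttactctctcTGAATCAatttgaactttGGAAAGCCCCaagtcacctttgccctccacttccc

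The letters TATAAA stood at -32 to -27 from the start in Ccl8 and at -31 to -26 in Ccl12, so both members of the first pair carried them in almost the same place. In Ccl9 they stood at -92 to -87, and Ccl6 had none. The window of Ccl9 also held TGANTCA (the AP-1 letters) at -53 to -47 and a kappaB-like motif (GGG and CC separated by 5 bases of any kind), read on the other strand, at -35 to -26, and these matches did not overlap. No match to TTCNNNGAA (letters like those of a STAT site) was found in the 4 windows. TATAAA was searched on the gene's strand and the other motifs on both strands. Among 32851 RefSeq promoters of the same length, 7.59% held TATAAA, 6.75% TGANTCA, 45.8% the kappaB-like motif and 7.02% TTCNNNGAA. Promoter entries were matched for 8 of the 10 members. Ccl2 and Ccl7 were not matched.

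In AB1 tumors, 6 of the 10 members were lower at the IPL site than at the SC site, 1 was higher and 3 did not pass the test. The members that fell were the CCR2 ligands Ccl2 and Ccl7, Ccl8, the CCR1 ligand Ccl6, and both receptors, Ccr1 and Ccr2. The member that rose was Cx3cr1. Calls are at an adjusted p under 0.05 in edgeR's quasi-likelihood test with Benjamini-Hochberg adjustment over all genes. Among all 14645 genes tested, 23% were called, with 12.3% higher and 10.7% lower. The median log2 fold change over the 10 members was -1.02, beside -0.00 over all genes.

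Ccl2, the main CCR2 ligand, ranged from 96.0 to 234 CPM (median 138) in AB1 IPL tumors and from 225 to 567 CPM (median 478) in AB1 SC tumors. Of the 8 SC tumors, 7 were above every IPL tumor, and the lowest SC tumor lay just within the IPL range. The level was 3.00-fold lower at the IPL site (log2 fold change -1.59, SE 0.21, edgeR adjusted p = 5.84e-05).

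Ccl7, a second CCR2 ligand encoded next to Ccl2, ranged from 39.6 to 101 CPM (median 51.9) in AB1 IPL tumors and from 68.7 to 160.2 CPM (median 102) in AB1 SC tumors. The groups overlapped, with 6 IPL tumors below all SC tumors. Ccl7 was 1.88-fold lower at the IPL site (log2 fold change -0.91, SE 0.21, edgeR adjusted p = 0.00386).

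Ccl12, the third CCR2 ligand of the cluster, did not pass the test. It ranged from 38.3 to 101 CPM (median 55.0) in AB1 IPL tumors and from 35.4 to 58.2 CPM (median 50.5) in AB1 SC tumors. The groups overlapped, with 2 IPL tumors above all SC tumors and the IPL tumor of replicate 2 far above the next, at 60.5 CPM. The log2 fold change was 0.20 with a 95% interval from -0.12 to 0.53 (edgeR adjusted p = 0.400), an interval that lies above the estimates of Ccl2 and Ccl7.

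Ccl8, which acts mainly through CCR8 in mice, fell. It ranged from 86.4 to 316 CPM (median 186) in AB1 IPL tumors and from 341 to 1258 CPM (median 692) in AB1 SC tumors. Every IPL tumor was below every SC tumor. The level was 3.65-fold lower at the IPL site (log2 fold change -1.87, SE 0.26, edgeR adjusted p = 0.000124). The groups also did not overlap for Ccr2 and Cx3cr1, so that 3 of 10 members were fully separated, beside 5.00% of all genes tested.

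Ccl6, a CCR1 ligand of myeloid cells, ranged from 27.1 to 299 CPM (median 38.4) in AB1 IPL tumors and from 118.1 to 300.5 CPM (median 163) in AB1 SC tumors. The IPL tumor of replicate 2 stood alone at 299 CPM, while the other 7 lay at or below 70.1 CPM and below every SC tumor. The log2 fold change was -1.45 (SE 0.49, edgeR adjusted p = 0.0429) in all 16 mice and -2.29 (SE 0.25, adjusted p = 1.97e-05) without that tumor. The call was kept in 3 of the 16 fits that left out 1 mouse, those without IPL replicate 2, SC replicate 3 or SC replicate 7, and lost in the other 13, where the adjusted p of Ccl6 ran up to 0.0760. It was also lost without a filter on low counts (adjusted p = 0.0819).

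Ccl9, the second CCR1 ligand, ranged from 24.2 to 167 CPM (median 43.9) in AB1 IPL tumors and from 73.5 to 182 CPM (median 90.5) in AB1 SC tumors. The same IPL tumor was the highest, and the other 7 were below all SC tumors. The log2 fold change of -0.88 (SE 0.32) did not pass the threshold in edgeR (adjusted p = 0.0608), and without IPL replicate 2 it was -1.29 (SE 0.22, adjusted p = 0.000482).

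Ccr1, the receptor of CCL6 and CCL9 on monocytes and neutrophils, ranged from 33.7 to 82.5 CPM (median 46.4) in AB1 IPL tumors and from 74.2 to 127 CPM (median 104) in AB1 SC tumors. Of the IPL tumors, 7 were below all SC tumors. Ccr1 was 2.19-fold lower at the IPL site (log2 fold change -1.13, SE 0.15, edgeR adjusted p = 9.30e-05).

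Ccr2, the receptor of classical monocytes, ranged from 41.4 to 181 CPM (median 161) in AB1 IPL tumors and from 202 to 414 CPM (median 324) in AB1 SC tumors. The groups did not overlap, and the IPL tumor of replicate 4, at 41.4 CPM, lay well below the next lowest IPL tumor, at 128 CPM. Ccr2 was 2.25-fold lower at the IPL site (log2 fold change -1.17, SE 0.23, edgeR adjusted p = 0.00159). Without replicate 4 the log2 fold change of Ccr2 was -1.06 (SE 0.15, adjusted p = 0.000150).

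The fractalkine receptor moved the other way. Cx3cr1 ranged from 59.1 to 118 CPM (median 86.2) in AB1 IPL tumors and from 29.4 to 48.9 CPM (median 37.4) in AB1 SC tumors, with every IPL tumor above every SC tumor. It was 2.22-fold higher at the IPL site (log2 fold change 1.15, SE 0.13, edgeR adjusted p = 2.39e-05).

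Its ligand Cx3cl1 ranged from 116 to 180.2 CPM (median 152) in AB1 IPL tumors and from 114 to 161 CPM (median 125) in AB1 SC tumors. The groups overlapped, and the log2 fold change of 0.16 (95% interval from -0.04 to 0.35, edgeR adjusted p = 0.276) did not pass the test. With the sequencing lane as a covariate the estimate for Cx3cl1 changed sign, to -0.10.

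**Figure D1:**
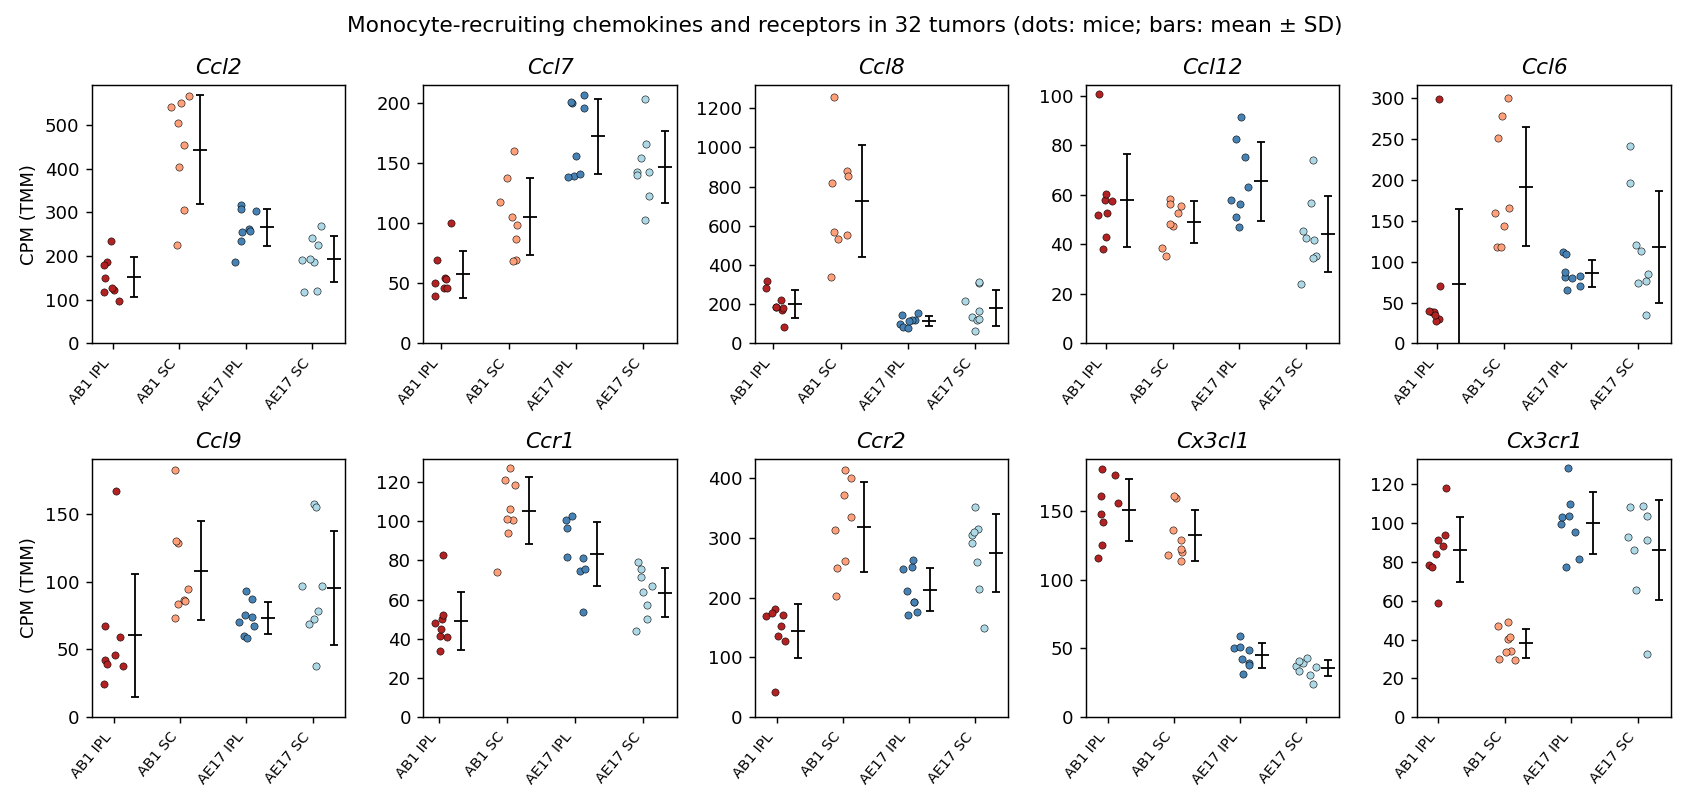
CPM of each member (vertical axis, linear, from 0) in the 4 groups (horizontal axis), with 1 dot per mouse and a bar for the mean ± SD of 8 mice. The bar of Ccl6 in AB1 IPL tumors is clipped at 0, since its SD of 92.5 CPM exceeds its mean of 72.2 CPM through the single tumor at 299 CPM, and every AB1 IPL tumor lies below every AB1 SC tumor for Ccl8 and Ccr2 and above for Cx3cr1.

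Sequencing lane was unevenly spread over the AB1 mice, with all 8 IPL mice in lane 3 and, of the SC mice, 2 in lane 3 and 6 in lane 2. Within lane 3, 8 IPL and 2 SC mice remained. There the log2 fold change was -1.55 for Ccl2 (edgeR adjusted p = 0.0309) and -1.89 for Ccl8 (adjusted p = 0.0238), and both passed the threshold, beside 1.06% of all genes. The estimates for Ccr1 (-1.10, adjusted p = 0.0807), Ccr2 (-1.16, adjusted p = 0.254) and Cx3cr1 (1.00, adjusted p = 0.0811) were close to those from all 16 mice but did not pass. Those for Ccl7 (-0.66, adjusted p = 0.402) and Ccl6 (-1.24, adjusted p = 0.578) were smaller and did not pass either. With lane as a covariate over all 16 mice, Ccl2 (-1.50), Ccl8 (-1.83), Ccr1 (-1.05) and Cx3cr1 (1.04) were called, beside 2.64% of all genes.

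Markers of other cells also differed between the AB1 groups. All 7 skeletal muscle markers were higher in IPL tumors, with a summed level from 99.0 to 3798 CPM (median 1678) beside 51.5 to 337 CPM (median 218) in SC tumors. Of the macrophage markers, Cd68, Mrc1, C1qa and Aif1 fell among 9 tested, and their summed level ran from 1684 to 3381 CPM (median 2166) in IPL tumors and from 2401 to 3469 CPM (median 2942) in SC tumors. Over the 9 macrophage markers the log2 fold change ran from -0.94 for Mrc1 to -0.07 for Mertk, with a median of -0.33. Of the classical monocyte markers, 3 of 6 tested fell, Ly6c2 and Ms4a4c among them, and the summed level ran from 545 to 1134 CPM (median 904) at the IPL site and from 731 to 992 CPM (median 871) at the SC site. No macrophage or monocyte marker in the table was at 0 in a group.

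All 3 NK cell markers, all 3 T cell markers and all 4 mast cell markers fell in AB1 IPL tumors, at summed medians of 15.1 against 69.5 CPM, 18.5 against 40.9 CPM and 43.0 against 108 CPM. The summed IPL ranges were 10.8 to 23.5, 5.60 to 32.9 and 14.9 to 61.5 CPM, and the SC ranges were 37.6 to 95.02, 30.4 to 60.3 and 72.6 to 158 CPM. Markers of B cells (2 of 2 tested), endothelium (3 of 6) and fibroblasts (2 of 3) rose, with summed IPL ranges of 12.3 to 58.9, 122 to 199.5 and 1280.1 to 4284 CPM and SC ranges of 8.63 to 12.4, 129 to 163 and 1062 to 1573 CPM. Of the neutrophil markers, 2 rose and 1 fell among 5 tested, with summed levels from 17.6 to 428 CPM at the IPL site and from 45.6 to 89.7 CPM at the SC site. Of the 4 nonclassical monocyte markers tested, only Eno3 rose (0.99, edgeR adjusted p = 0.00570), and Ace, Treml4 and Cd300e were not called. The summed level of this list was highest in IPL replicate 4 (238 CPM), the tumor that also had the highest summed skeletal muscle level. The part of skeletal muscle in the Eno3 rise was not tested. Of the dendritic cell markers 1 of 5 fell, of adipocytes 1 of 3 rose, and of cardiac muscle 1 rose and 1 fell of 2. None of 2 mesothelial and 1 lung epithelial markers was called. With the mean levels of skeletal muscle, cardiac muscle, adipocyte and lung epithelium markers as covariates, Ccl2 (-1.19, edgeR adjusted p = 0.0476), Ccl8 (-2.14, adjusted p = 0.0227), Ccr1 (-0.84, adjusted p = 0.0307) and Cx3cr1 (1.05, adjusted p = 0.0300) were called, and Ccl7 (-0.71), Ccl6 (-1.46) and Ccr2 (-1.16) were not, beside 3.06% of all genes called. The part of the other immune and stromal markers in the differences was not tested.

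The IPL tumors of replicates 2 and 4 were the least similar to their group in AB1 (median r of 0.951 and 0.955 with the other IPL tumors over all genes, against 0.966 to 0.980 for the rest). Replicate 2 had the highest summed macrophage level of its group (3381 CPM) and the highest mesothelial level (283 CPM, beside at most 121 CPM), and it had the highest level in its group of Ccl7, Ccl8, Ccl12, Ccl6, Ccl9 and Ccr1. Replicate 4 had the highest summed skeletal muscle level (3798 CPM) and the lowest levels of Ccr1 and Ccr2. Without both, 7 members fell and 1 rose, with Ccl9 (-1.38, edgeR adjusted p = 0.000857) added to those called, beside 25.4% of all genes.

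In AE17 tumors, none of the 10 members passed the threshold between sites in edgeR, beside 5.73% of all 14668 genes tested, and none had groups that did not overlap, beside 0.573% of genes. At an unadjusted p under 0.05, 6 members differed, beside 25.2% of all genes. DESeq2 called 3 members (Ccl2, Ccl12 and Ccr1, all higher), beside 11.3% of all genes in that fit. Limma-voom with sample quality weights called 5 (the same 3 and Cx3cl1 higher, Ccr2 lower), beside 27% of all genes. The median log2 fold change of the members was 0.23, beside 0.00 over all genes.

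Among the CCR2 ligands, Ccl2 ranged from 187 to 316 CPM (median 260.0) in AE17 IPL tumors and from 118 to 268 CPM (median 192) in AE17 SC tumors, a log2 fold change of 0.47 (95% interval from 0.15 to 0.78, edgeR adjusted p = 0.0881). Of the IPL tumors, 7 were above the SC median. Ccl12 ranged from 47.0 to 91.6 CPM (median 60.6) at the IPL site and from 23.9 to 74.1 CPM (median 42.3) at the SC site (log2 fold change 0.57, 95% interval from 0.18 to 0.95, edgeR adjusted p = 0.0889), with all 8 IPL tumors above the SC median. Ccl7 ranged from 139 to 207 CPM (median 176) and from 103 to 203 CPM (median 143), with a log2 fold change of 0.24 (edgeR adjusted p = 0.258).

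Ccl8 ranged from 76.6 to 153 CPM (median 117) in AE17 IPL tumors and from 61.9 to 314 CPM (median 148) in AE17 SC tumors, with a log2 fold change of -0.66 (95% interval from -1.20 to -0.11, edgeR adjusted p = 0.152). Of the SC tumors, 4 were above every IPL tumor, and the lowest SC tumor was below every IPL tumor. The CCR1 ligands also had a wider range at the SC site than at the IPL site. Ccl6 ranged from 65.2 to 112 CPM (median 81.9) at the IPL site and from 34.5 to 241 CPM (median 99.4) at the SC site, and Ccl9 from 58.7 to 92.8 CPM (median 72.2) and from 37.8 to 157 CPM (median 87.5). Their log2 fold changes were -0.44 (95% interval from -1.02 to 0.13, edgeR adjusted p = 0.362) and -0.38 (95% interval from -0.82 to 0.07, adjusted p = 0.310). The SC tumor of replicate 8 had the lowest level in its group of Ccl2, Ccl7, Ccl8, Ccl6, Ccl9 and Ccr2.

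Of the receptors, Ccr1 ranged from 53.7 to 102 CPM (median 81.6) in AE17 IPL tumors and from 43.8 to 79.0 CPM (median 65.3) in AE17 SC tumors, with 5 IPL tumors above every SC tumor (log2 fold change 0.40, 95% interval from 0.13 to 0.67, edgeR adjusted p = 0.0915). Ccr2 ranged from 171 to 264 CPM (median 202) and from 149.5 to 352 CPM (median 298), with a log2 fold change of -0.36 (95% interval from -0.65 to -0.06, edgeR adjusted p = 0.151). Cx3cl1 ranged from 31.2 to 59.4 CPM (median 45.6) and from 24.4 to 43.1 CPM (median 37.1), with a log2 fold change of 0.33 (edgeR adjusted p = 0.120). Cx3cr1 ranged from 77.5 to 128 CPM (median 101) at the IPL site and from 32.7 to 109 CPM (median 92.02) at the SC site, with a log2 fold change of 0.22 (edgeR adjusted p = 0.493). All 4 pairs of groups overlapped.

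In the AE17 model, 3 IPL and all 8 SC mice were sequenced in lane 1, and the other 5 IPL mice in lane 2. Within lane 1 none of the members was called, beside 0.0911% of all genes, with log2 fold changes of 0.58 for Ccl2, 0.79 for Ccl12, 0.42 for Ccr1, -0.51 for Ccl8 and -0.26 for Ccr2. Single mice decided the count here: leaving out IPL replicate 5 brought in Ccr1 (edgeR adjusted p = 0.0314), and leaving out SC replicate 1, 4 or 8 brought in Ccl2 (adjusted p = 0.0328), Ccl12 (adjusted p = 0.0278) or Ccr2 (adjusted p = 0.0368). The IPL tumors of replicates 5 and 8 had the highest summed B cell markers (126 and 82.5 CPM, beside a group median of 2.89 CPM). Replicate 5 also had the highest summed adipocyte level of its group (299 CPM, next 16.9 CPM) and cardiac muscle level (179 CPM, next 28.9 CPM). Its skeletal muscle, fibroblast and endothelial levels were the highest too. Without both tumors, Ccr1 was called (log2 fold change 0.48, edgeR adjusted p = 0.0413), beside 6% of all genes. Between AE17 sites, the NK cell markers Ncr1 and Klrb1c (2 of 3 tested), the mast cell markers Kit and Ms4a2 (2 of 4) and the dendritic cell marker Cd209a (1 of 5) fell, and the B cell marker Cd79a (1 of 1) and the cardiac marker Tnnt2 (1 of 2) rose. With the skeletal muscle, cardiac muscle, adipocyte and lung epithelium markers as covariates, none of the members was called, beside 0.314% of all genes, with log2 fold changes of 0.42 for Ccl2, 0.46 for Ccl12 and 0.32 for Ccr1. The part of the immune cell markers in the members' values was not tested. No marker of the other lists passed the test, macrophages, monocytes and skeletal muscle included, and the summed macrophage level ran from 2732 to 3224 CPM at the IPL site and from 2015 to 3390.1 CPM at the SC site.

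**Figure D2:**
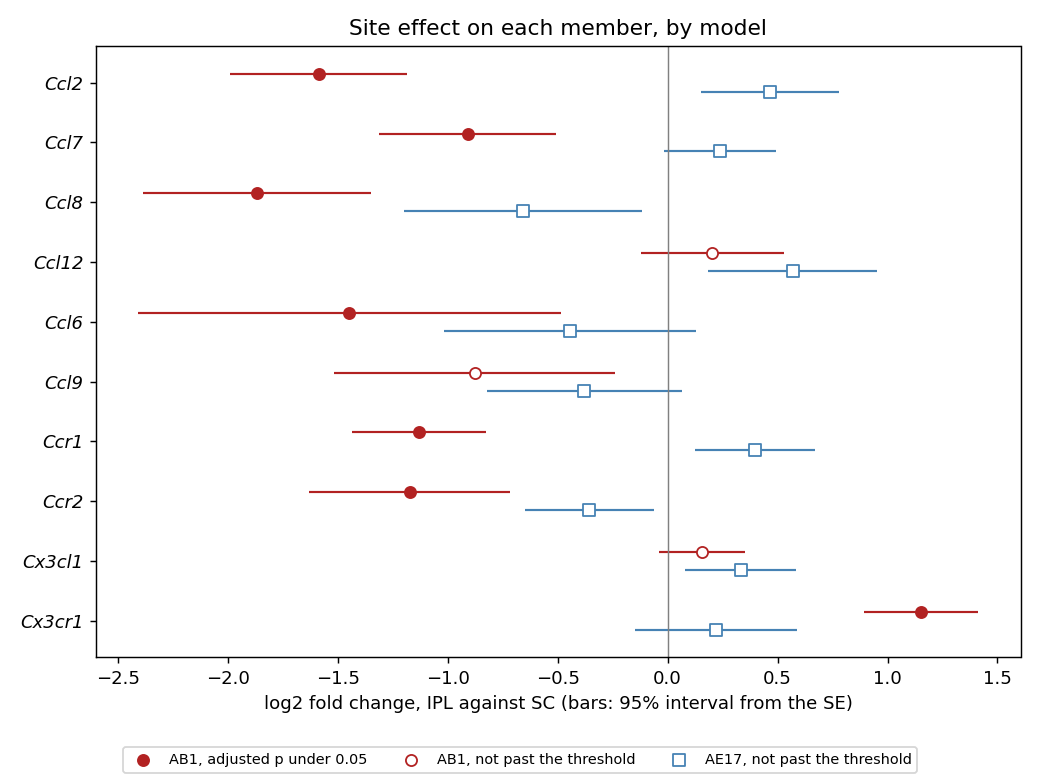
Log2 fold change of each member between IPL and SC tumors (horizontal axis, 0 marked by a line) in the AB1 model (circles) and the AE17 model (squares), with bars for the 95% interval from the standard error and filled symbols for an edgeR adjusted p under 0.05. In AB1, 6 filled circles lie left of 0 and that of Cx3cr1 lies right of it, while no square is filled.

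The difference of the site effects between the models was tested in 1 fit of all 32 mice. The site effect was lower in AB1 than in AE17 for 5 members and higher for 1, beside 20.5% of all 15681 genes tested (11.9% higher and 8.62% lower). On the log2 scale the difference was -2.04 for Ccl2 (SE 0.27, edgeR adjusted p = 2.89e-05), -1.51 for Ccr1 (SE 0.22, adjusted p = 4.62e-05) and -1.13 for Ccl7 (SE 0.25, adjusted p = 0.00243). These 3 had estimates below 0 in AB1 and above 0 in AE17. For Ccl8 (-1.19, SE 0.39, adjusted p = 0.0294) and Ccr2 (-0.80, SE 0.29, adjusted p = 0.0456) both estimates were below 0, and the AB1 one was the larger in size. For Cx3cr1 (0.95, SE 0.24, adjusted p = 0.00525) both were above 0.

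The differences for Ccl12 (-0.35, 95% interval from -0.87 to 0.17), Ccl6 (-0.99, from -2.13 to 0.16), Ccl9 (-0.48, from -1.29 to 0.33) and Cx3cl1 (-0.16, from -0.48 to 0.16) did not pass the test. Without the AB1 IPL tumor of replicate 2, those of Ccl6 and Ccl9 were larger and were called, at -1.85 (edgeR adjusted p = 0.00186) and -0.90 (adjusted p = 0.0478). The call of Ccr2 was lost in 16 of the 32 fits that left out 1 mouse, with adjusted p up to 0.0781, and that of Ccl8 without AB1 SC replicate 6 (adjusted p = 0.0560). Without a filter on low counts, neither Ccl8 (adjusted p = 0.0685) nor Ccr2 (adjusted p = 0.0925) was called. In limma-voom the difference for Ccr2 was -0.51 (adjusted p = 0.0601) and did not pass. With lane as a covariate, the differences for Ccl2 (-2.07, adjusted p = 0.0222) and Ccr1 (-1.45, adjusted p = 0.0315) were called, and those for Ccl7 (-1.08, adjusted p = 0.109), Ccl8 (-1.31, adjusted p = 0.236), Ccr2 (-0.85, adjusted p = 0.310) and Cx3cr1 (0.65, adjusted p = 0.371) were not, beside 0.746% of all genes called.

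The models were also compared at each site. Cell line, strain, number of cells and lane all differ between them, so these cannot be told apart. At the SC site, 4 members were higher in AB1 than in AE17 and 2 lower, beside 63.7% of 14718 genes called (31.2% higher and 32.5% lower). Ccl8 was 3.97-fold higher (log2 fold change 1.99, SE 0.33, edgeR adjusted p = 4.67e-05) and Cx3cl1 3.63-fold higher (1.86, SE 0.11, adjusted p = 7.15e-11), and these 2 had groups that did not overlap, beside 31.2% of genes. Ccl2 (1.18) and Ccr1 (0.71) were also higher in AB1 SC tumors, and Ccl7 (-0.50) and Cx3cr1 (-1.20) were lower. At the IPL site, 2 members were higher in AB1 and 4 lower, beside 59.1% of 14886 genes (30.5% higher and 28.6% lower). Cx3cl1 was 3.32-fold higher (1.73, SE 0.13, edgeR adjusted p = 3.09e-09) and Ccl7 3.03-fold lower (-1.60, SE 0.17, adjusted p = 3.68e-07), again without overlap, beside 28.4% of genes. Ccl8 (0.82) was higher, and Ccl2 (-0.83), Ccr1 (-0.77) and Ccr2 (-0.58) were lower.

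Ccl2 and Ccr1 thus stood higher in AB1 than in AE17 at the SC site and lower at the IPL site, while Cx3cl1 was higher in AB1 at both. The 2 site comparisons use different mice. No lane held both models at the same site. In a fit of all 32 mice with lane as a covariate, 5 members were called at the SC site, beside 33.6% of all genes, and 2 at the IPL site, beside 31.9%, a share of the members below that of all genes. The SC difference of Ccl7 was then -0.01 (edgeR adjusted p = 0.992), and at the IPL site Cx3cl1 (1.37, adjusted p = 3.65e-05) and Ccl7 (-1.08, adjusted p = 0.0139) were called. At the SC site, leaving out AE17 replicate 1 or 6 brought in Ccl6 (edgeR adjusted p = 0.0463 and 0.0199). At the IPL site, leaving out AB1 replicate 2 brought in Ccl6 (-1.13), Ccl9 (-0.71) and Ccl12 (-0.36), leaving out AB1 replicate 7 brought in Cx3cr1 (-0.30, adjusted p = 0.0339), and leaving out AE17 replicate 7 or 8 ended the call of Ccr2 (adjusted p = 0.0521 and 0.0500).

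Levels were compared between genes per kilobase of exon, as the mean log2 CPM per kb of 8 mice. Ccl8 stood first in AB1 IPL (8.55 ± 0.57, SD), AB1 SC (10.37 ± 0.58) and AE17 SC tumors (8.28 ± 0.79), and in each of these its gap to the next member was larger than the SD of either. Ccl2 came second in AB1 SC tumors (8.55 ± 0.47), above Ccl7 (6.98 ± 0.44) by more than either SD, while in AB1 IPL tumors its lead over Ccl12 (6.70 ± 0.41) was smaller than the spread. In AE17 IPL tumors Ccl2 (7.85 ± 0.25), Ccl8 (7.76 ± 0.35) and Ccl7 (7.73 ± 0.26) did not differ beyond their spread. The receptors Ccr1 and Ccr2 lay between 4.07 and 5.52 in all groups, below the CCR2 ligands in each.

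The lowest member was Cx3cr1 in AB1 SC tumors (3.06 ± 0.28) and Cx3cl1 in AE17 IPL (3.49 ± 0.30) and AE17 SC tumors (3.17 ± 0.26), each by more than the SD of its neighbor. In AB1 IPL tumors the last 4, Ccr2, Cx3cr1, Ccr1 and Ccl9, lay between 4.07 and 4.30 and did not differ beyond their spread. The fractalkine ligand ranked 5 of 10 in AB1 IPL tumors and last in both AE17 groups. On the longest transcript in place of all exons, Ccr1 and Ccl9 exchanged places in AB1 IPL tumors, and Cx3cl1 moved from rank 9 to rank 7 in AB1 SC tumors.

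**Figure D3:**
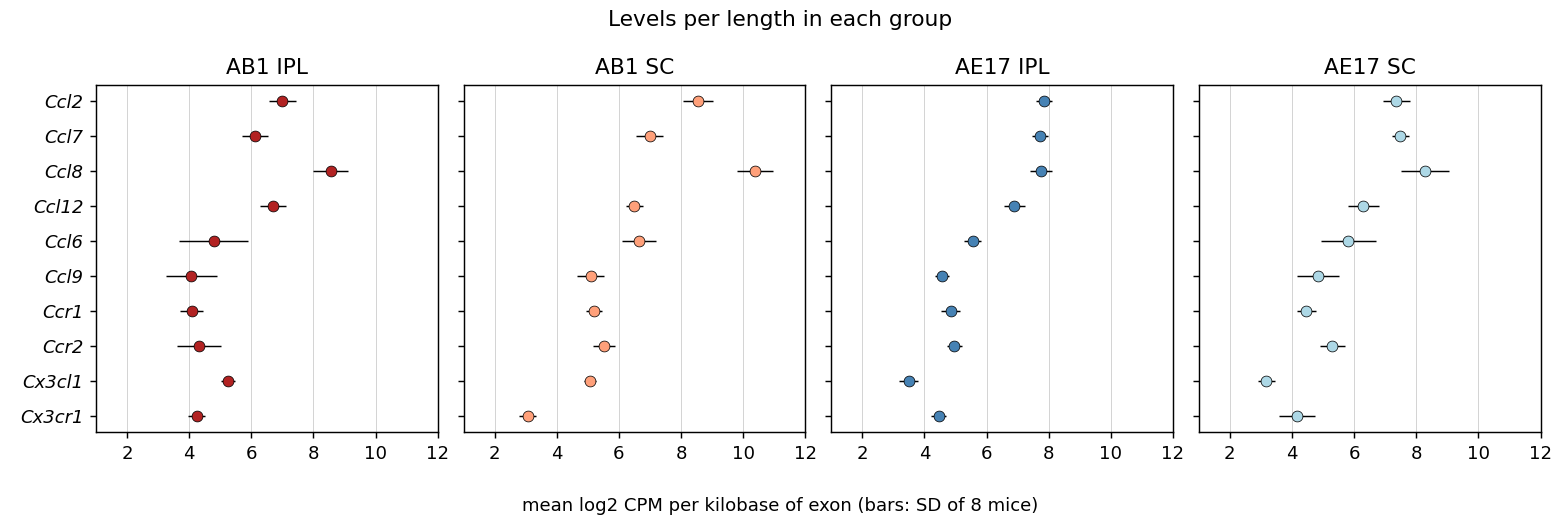
Mean log2 CPM per kilobase of exon of each member (horizontal axis) in the 4 groups (panels), with bars for the SD of 8 mice. Ccl8 stands farthest to the right in AB1 IPL, AB1 SC and AE17 SC tumors, and the lowest level belongs to Cx3cr1 in AB1 SC tumors and to Cx3cl1 in both AE17 groups.

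Whether members varied together between mice was tested within each group for 8 pairs, giving 32 relations of log2 CPM over 8 mice with exact two-sided permutation tests and Benjamini-Hochberg adjustment. The CCR1 ligands Ccl6 and Ccl9 rose and fell together in all 4 groups. Pearson's r was 0.91 in AB1 IPL (exact permutation p = 0.00682, adjusted 0.0273), 0.93 in AB1 SC (p = 0.00127, adjusted 0.00873), 0.95 in AE17 IPL (p = 0.00194, adjusted 0.0103) and 0.99 in AE17 SC tumors (p = 0.000198, adjusted 0.00318). Spearman's rho was 0.74, 0.83, 0.79 and 0.93, with adjusted exact p of 0.147, 0.0820, 0.0993 and 0.0357. Without the 2 mice farthest from the median of Ccl6, r was 0.90 in AB1 SC, 0.84 in AE17 IPL and 0.99 in AE17 SC tumors. In AB1 IPL tumors r fell to 0.64 (exact permutation p = 0.185, 6 mice), so the relation there did not pass without the mice left out.

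Ccl2 and its receptor Ccr2 varied together in AB1 SC tumors, with r = 0.96 (exact permutation p = 2.48e-05, adjusted 0.000794) and rho = 1 (p = 4.96e-05, the smallest this test gives, adjusted 0.00159). In these 8 tumors the order by Ccl2 was the order by Ccr2. Other members shared extremes there: replicate 3 was lowest for every member but Cx3cr1, and replicate 6 was highest for Ccl7, Ccl8, Ccl6, Ccl9 and Ccr1. Over all 32 mice, after centering within each group, Ccl2 had r = 0.71 with Ccr1 and 0.38 with Ccr2. Whether the relation was particular to this ligand and receptor was not tested. The 6 of them in lane 2 gave r = 0.95 (exact permutation p = 0.00139), and without the 2 mice farthest from the median r was 0.99. No such relation passed the test in the other groups, where r was 0.15 in AB1 IPL, -0.00 in AE17 IPL and 0.41 in AE17 SC tumors. The difference between groups was not tested.

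Ccl2 and Ccl8 had r = 0.89 in AB1 SC tumors (exact permutation p = 0.00114, adjusted 0.00873; rho 0.90, adjusted 0.0487), and Ccl2 and Ccl7 had r = 0.86 in AB1 SC (exact permutation p = 0.00392, adjusted 0.0179; rho 0.88, adjusted 0.0579) and 0.90 in AE17 SC tumors (p = 0.00136, adjusted 0.00873; rho 0.86, adjusted 0.0686). Without the 2 mice farthest from the median, Ccl2 and Ccl8 had r = 0.86, and Ccl2 and Ccl7 had 0.70 (exact permutation p = 0.121, 6 mice) and 0.81. Within lane 2 the AB1 SC values were 0.89 for Ccl2 and Ccl8, 0.87 for Ccl2 and Ccl7, and 0.95 for Ccl6 and Ccl9. The AB1 IPL mice were all in 1 lane and the AE17 SC mice in another, and no lane held 6 AE17 IPL mice. None of the other pairs passed the adjusted threshold in any group by r, including Cx3cl1 with its receptor Cx3cr1, where r ran from 0.00 to 0.79.

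**Figure D4:**
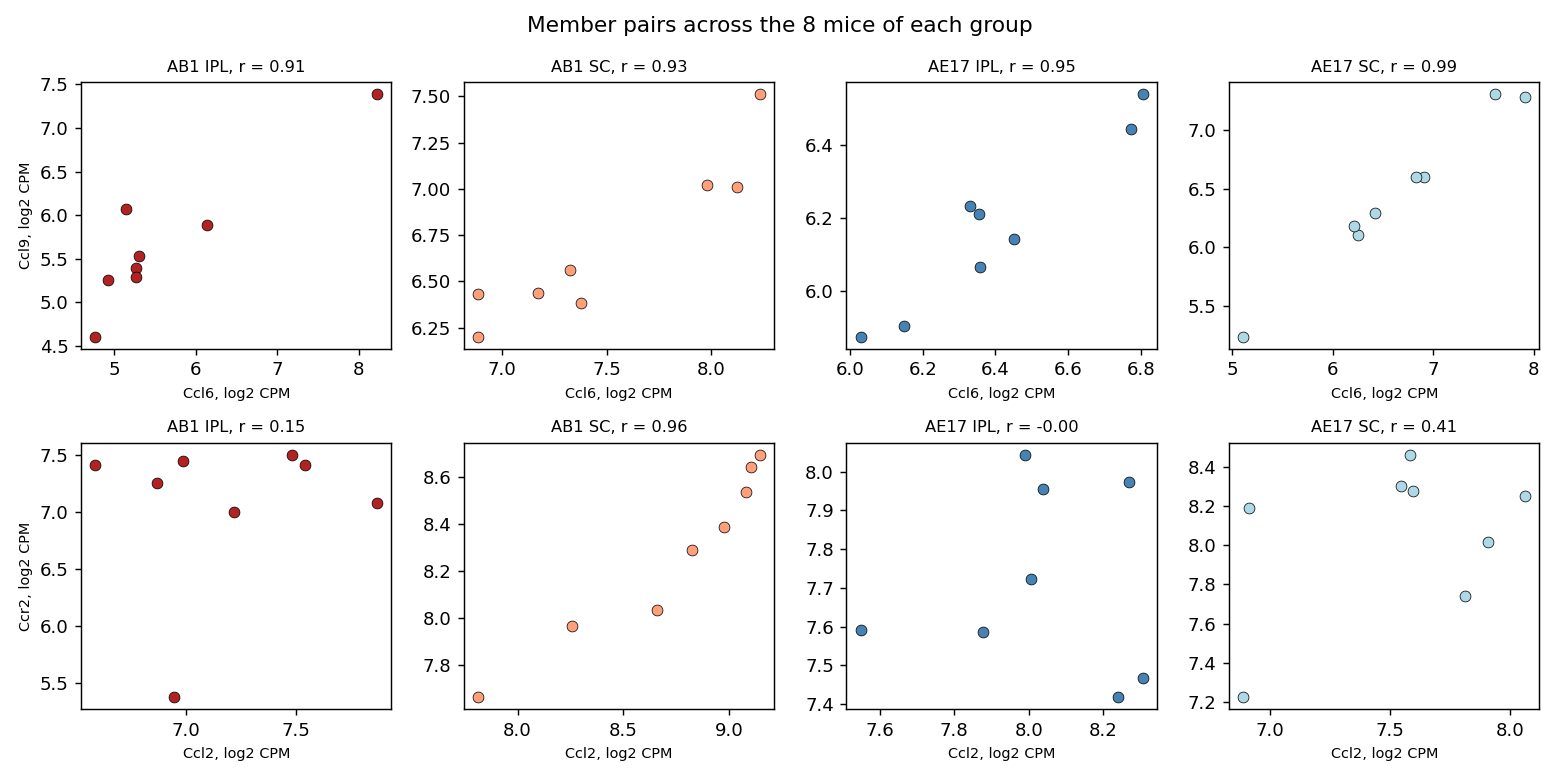
Log2 CPM of Ccl9 against Ccl6 (upper row) and of Ccr2 against Ccl2 (lower row) in the 8 mice of each group (columns), with 1 dot per mouse and Pearson's r above each panel. Ccl6 and Ccl9 lie along a rising line in all 4 groups, with 1 tumor far from the rest in AB1 IPL, and Ccl2 and Ccr2 do so in AB1 SC tumors, where r is 0.96.

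The genes whose levels varied most like each member were sought among 13919 genes averaging 1 CPM or more, by Pearson's r over 32 mice after centering within each group, as a description. Ccl6 and Ccl9 were each other's nearest (0.94), and Ms4a8a was among the nearest 3 of both (0.87 and 0.84). The nearest to Ccr2 were Cysltr1 (0.91), a leukotriene receptor, Bach1 (0.91) and Lamp2 (0.90), and to Ccl8 Tmem176b, Pik3cd and Ubl3 (0.89 to 0.90). The neutrophil chemokine Cxcl1 was nearest to Ccl7 (0.83), and Rnf19b to Ccl2 (0.85). Lilra5 and Ntpcr were among the nearest 3 of both Ccl12 (0.70 and 0.75) and Cx3cr1 (0.75 and 0.67). Tpd52 was nearest to Ccr1 (0.82), Kcnj10 to Cx3cr1 (0.76) and Comtd1 to Cx3cl1 (0.63).

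Of the other CC chemokines, 10 of 14 with a row were tested in AB1 tumors, where 7 fell and 1 rose at the IPL site, beside 10.7% and 12.3% of all genes (median log2 fold change -1.56, beside -0.00 over all genes). Those with the smallest adjusted p were Ccl1 (-2.12), a CCR8 ligand, Ccl5 (-2.02), which draws T cells and monocytes, Ccl11 (-1.72), the eosinophil chemokine eotaxin, and Ccl22 (-1.39), a CCR4 ligand. The member that rose was Ccl21a (3.89), a lymphoid chemokine with near-identical copies in the genome, so its count is uncertain, and it is named for being the only rise. In AE17 tumors, 11 were tested and 3 fell, Ccl17 (-2.27), Ccl22 (-1.65) and Ccl11 (-1.81), beside 5.73% of all genes called in either direction. These 3 genes fell in both models. The difference of the site effects was called for 3 of 12 of these chemokines, all lower in AB1, beside 20.5% of all genes called and 8.62% called lower: Ccl5 (-2.30), Ccl3 (-1.86) and Ccl1 (-1.33).

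Of the other CC receptors, 7 fell and 1 rose among 10 tested in AB1 tumors, beside 10.7% and 12.3% of all genes (median log2 fold change -0.92). Among those with the smallest adjusted p were Ccr9 (-1.50), Ccr8 (-1.40), the receptor of mouse CCL8, and Ccr7 (-0.94), the lymph node homing receptor. Ccr10 (0.43) rose and is named for being the only rise. In AE17 tumors, 1 of 10 rose, the scavenging receptor Ackr2 (1.65), and 1 fell, Ccr3 (-1.09), the receptor of eosinophils, beside 5.73% of all genes called. The difference between models was called for 3 of 11, with 2 lower in AB1, among them Ccrl2 (-1.32), and 1 higher, Ackr4, which was too low in AB1 tumors to be tested there, so its value is not given. These shares stand beside 20.5% of all genes called for the difference.

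The last list held inducers of these chemokines, myeloid growth factors and the sheddases of fractalkine. In AB1 tumors 6 of 10 fell, beside 10.7% of all genes, and none rose (median log2 fold change -0.40). They included Csf2 (-2.30), which encodes GM-CSF, Tnf (-1.15), an inducer of Ccl2, Nfkb1 (-0.48) and the macrophage growth factor gene Csf1 (-0.41). The sheddases Adam10 (-0.25, edgeR adjusted p = 0.264) and Adam17 (-0.18, adjusted p = 0.274) did not pass the test. In AE17 tumors none of the 10 was called, beside 5.73% of all genes. The difference of the site effects was called for 3 of 10, all lower in AB1, again beside 8.62% of all genes called lower: Csf2 (-2.24), Csf1 (-0.64) and Nfkb1 (-0.32).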

How the data were processed

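Whole-tumor RNA of 32 mice (8 per group) was sequenced by the authors as 50 bp single-end reads, demultiplexed with bcl2fastq 1.8.4 and mapped with HISAT2 2.0.4 per the labels, and the counts of reads on each gene from SummerizeOverlaps were deposited without normalization. Treatment of strand and of reads with several matches is not given in the sources used here. The methods write the genome as mm11. Coordinates are from GENCODE M21 on GRCm38, which holds all 10 member identifiers with their version. Groups came from sample titles, and lanes from the column names. Members and gene lists were chosen with earlier results of these data known. All 10 members are named, with at most 4 called genes of each other CC list (smallest adjusted p), the 3 most alike genes per member, and marker genes and exceptions named after their values were seen. Replicates are separate mice. The p-values of the fits set differences between groups against the spread between mice, and the permutation p-values are for correlations across mice.

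Each comparison was fitted on the counts of its own groups in R 4.3.3 with edgeR 4.0.16 (filterByExpr, TMM, robust quasi-likelihood F test, two-sided, Benjamini-Hochberg adjustment over all genes). Alternatives used DESeq2 1.42.0, which replaces outlying counts, limma 3.58.1, other scalings and filters, lane, tissue markers, and leaving out mice. Log2 CPM used a prior count of 2. The 95% intervals are the estimate ± 1.96 SE. The procedures were tested on simulated data. No library pair within a group agreed within counting error (112 pairs). Plots used matplotlib 3.10.9. Some listed genes are not analysed or not reported here.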

Additional observations from a re-analysis of the deposited data

Results flagged for a closer look

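With 40 groups of 8 values tested, where about 1 in 20 would be expected by chance, 4 single tumors lay far from their group (Dixon's ratio above 0.526 on log2 CPM). Ccl6 stood at 298.9 CPM in AB1 IPL replicate 2, with the next highest tumor at 70.1 CPM, and Ccl12 at 100.6 CPM in the same tumor, with the next at 60.5 CPM. Ccr2 stood at 41.4 CPM in AB1 IPL replicate 4, with the next lowest at 128 CPM, and Cx3cr1 at 32.7 CPM in AE17 SC replicate 6, with the next lowest at 65.8 CPM.

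For 6 members the effect of site differed between AB1 and AE17 by the interaction test in edgeR, beside 20.5% of all genes. With lane as a covariate Ccl2 and Ccr1 stayed called, and the call of Ccr2 was lost in 16 of the 32 fits that left out 1 mouse. The difference of the log2 fold changes, AB1 minus AE17, was -2.04 for Ccl2, -1.13 for Ccl7, -1.19 for Ccl8, -1.51 for Ccr1, -0.80 for Ccr2 and 0.95 for Cx3cr1.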

How the results depend on the processing

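The number of members called between AB1 sites was 7, and 8 with DESeq2, limma-voom, all 32 mice in 1 fit or the 2 least similar libraries left out (chosen after seeing the data), with 3868, 4615, 4296 and 3757 genes called in these fits. It fell to 4 with lane as a covariate, 2 within 1 lane and 4 with tissue marker covariates. The counts over all genes were 3374 in the main comparison, 386 with lane as a covariate, 169 within 1 lane and 448 with tissue marker covariates, and these fits have fewer samples or residual degrees of freedom. Leaving out each mouse gave 6 to 8 members and 2877 to 3652 genes. For AE17 the count of 0 became 3 with DESeq2, 5 with limma-voom and 1 without IPL replicates 5 and 8 (added after seeing the data), with 840, 1661, 3959 and 891 genes called in these fits, and 0 to 1 when each mouse was left out. The count for the difference of site effects, 6, fell to 2 with lane as a covariate (3212 and 117 genes) and ran from 4 to 8 when each mouse was left out. The count between models ran from 6 to 7 at the SC site (6 in all mice) and from 5 to 9 at the IPL site (6 in all mice), where it fell to 2 with lane in a fit of all 32 mice, added after seeing the data (8793 and 5008 genes, and 9370 and 5268 at the SC site). Over all genes, AE17 calls also moved to 1 with lane as a covariate, 14 within 1 lane, 46 with tissue marker covariates, 550 without a filter, 1324 with all 32 mice and 316 to 2066 when each mouse was left out. Stricter calls (adjusted p under 0.01, or a log2 change of at least 1) gave 1903 and 988 genes in AB1, 75 and 246 in AE17, and 1513 for the difference at 0.01. DESeq2, which replaces outlying counts, gave -1.03 for Ccl6 between models at the IPL site, against -0.27 in edgeR. The cause was not tested for these changes.

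Of 490 member values under these alternatives, 435 kept direction and side of the threshold and 5 changed sign, all of members that were not called: Cx3cl1 between AB1 sites (-0.10 with lane as a covariate, -0.15 within 1 lane), and Ccl12 (0.21), Ccl6 (0.020) and Ccl9 (0.052) between models at the IPL site with lane in the fit. Scaling by DESeq2's size factors or by total counts changed no call of a member. Replicate numbers were not taken to pair mice, since not every pair of same-numbered mice had a correlation over 0.1: between AB1 sites 0 of 8 did, and between AE17 sites 5 of 8. With the replicate block, 8 members were called between AB1 sites (Ccl9 added, adjusted p = 0.0267), 0 between AE17 sites, 5 for the difference of site effects (without Ccl8, adjusted p = 0.0620, and Ccr2, 0.0607, and with Ccl6, 0.0423), 5 between models at the SC site (without Ccl7, 0.0581) and 6 at the IPL site, with 2263, 661, 2398, 8847 and 8265 genes called in these fits. The lowest count of any member was 408.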
